A study of Mus musculus with 16 samples.

Results

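Fibroblast and mural cell transcripts were followed in RNA of macrophages sorted from mouse skeletal muscle, through 32 genes of the 24421 gene symbols of the count table. The 32 comprised 18 fibroblast genes (fibrillar and type VI collagens, small proteoglycans, microfibril and other matrix genes, and Pdgfra) and 11 mural cell genes (the contractile and receptor genes of pericytes and vascular smooth muscle). The other 3, called shared, are genes of vascular cells and basement membrane (Col4a1, Col4a2 and Igfbp7). All 32 were selected on their counts in CTX-injected against normal muscle, as known from earlier results of these libraries. That comparison is therefore given as a description and without a p-value. Mice were GLUD1 KO or WT, and F4/80+ cells were sorted from muscle injected with CTX (named only by this abbreviation, commonly cardiotoxin, a snake toxin that destroys muscle fibres) near the height of damage, or from normal muscle. The groups, of 4 libraries each, were KO CTX, WT CTX, KO normal and WT normal. The labels do not give the allele or Cre line of the knockout, the strain, the age or the time after injection. They also do not say that each library stands for its own mouse, and the p-values cover the variation among libraries, part or all of which could be technical.

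Fibroblasts of muscle, also called fibro-adipogenic progenitors, lay down the collagen and proteoglycan matrix around the fibres, and they carry the receptor encoded by Pdgfra. Mural cells wrap the vessels: pericytes around capillaries and smooth muscle cells around arterioles, with an actin and myosin apparatus encoded by Acta2, Tagln, Myl9 and Myh11. A sort for F4/80, a surface protein of macrophages encoded by Adgre1, is meant to leave both cell types behind. Some of the 32 genes are also active in other cells of muscle, such as Des in muscle fibres and Col4a1 in endothelium.

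Library totals ran from 17051892 to 23097420 reads assigned to genes, and no pair of libraries within a group agreed within sampling noise. Adgre1 was at 617 to 1254 CPM (read counts relative to the library total, scaled here with TMM factors) in the 8 CTX libraries and at 509 to 698 CPM in the 8 normal ones. Detected genes numbered 14434 to 14886 in CTX and 16118 to 16846 in normal libraries, and TMM factors were 0.758 to 0.866 in CTX and 1.13 to 1.34 in normal libraries. By Xist and Y-linked genes, all CTX libraries and 5 normal libraries were from male mice, while KO normal library 5 and WT normal libraries 5 and 6 were from females, so that sex and the higher replicate numbers cannot be told apart. Glud1 was at 327 to 351 CPM in KO CTX against 348 to 391 CPM in WT CTX, and at 209.8 to 272 CPM in KO normal against 219 to 292 CPM in WT normal libraries. Since the labels do not say which exons were removed, these Glud1 counts are no check of genotype.

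Promoter sequences are shown for 1 fibroblast and 2 mural genes, because each holds an element of promoters that was searched in those of the 32 genes with a promoter sequence at hand. They were taken from RefSeq (GRCm38.p6, the assembly that mm10 names), plus strand, ending at the last base outside annotated exons. Capitals mark the element found: TATAAA in Col3a1 (chr1:45311288-45311537), a CArG box, the element bound by serum response factor in many smooth muscle genes, in Myl9 (chr2:156775214-156775419), and CCAAT, read on the opposite strand as ATTGG, in Rgs5 (chr1:169655251-169655500).
Col3a1: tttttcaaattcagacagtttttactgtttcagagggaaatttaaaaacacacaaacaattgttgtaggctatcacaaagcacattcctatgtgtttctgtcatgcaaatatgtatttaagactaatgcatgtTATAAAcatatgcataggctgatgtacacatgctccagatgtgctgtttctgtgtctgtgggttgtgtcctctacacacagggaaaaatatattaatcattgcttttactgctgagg
Myl9: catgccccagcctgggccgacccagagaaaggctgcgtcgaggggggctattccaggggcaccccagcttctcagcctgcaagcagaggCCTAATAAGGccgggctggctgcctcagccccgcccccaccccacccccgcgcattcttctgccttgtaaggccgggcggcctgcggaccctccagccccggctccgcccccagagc
Rgs5: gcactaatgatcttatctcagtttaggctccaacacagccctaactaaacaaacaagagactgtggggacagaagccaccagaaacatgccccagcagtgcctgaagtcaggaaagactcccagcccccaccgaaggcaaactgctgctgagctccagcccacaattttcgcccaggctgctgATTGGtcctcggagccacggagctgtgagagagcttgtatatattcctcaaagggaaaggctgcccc
The RefSeq table held a promoter for 13 of 18 fibroblast, 8 of 11 mural and 3 of 3 shared genes. The mural genes Tagln, Myh11 and Pdgfrb and the fibroblast genes Col1a1, Col5a2, Dcn, Lum and Mfap5 had none and were not searched. Only exact matches were counted, so a CArG box with a mismatch would be missed. The RefSeq start lay furthest from the outermost annotated start of the gene for Sparc (3103 bases), Fbn1 (1555), Pi16 (1202) and Col1a2 (804). The outermost starts of these genes were not searched. In the 250 bases before the start, searched on both strands, a CArG box was found in Myl9 alone (1.47% of 32851 promoters hold one) and TATAAA in Col3a1 alone (12.4%). CCAAT was found in Col1a2 and Pi16, in Cnn1 and Rgs5, and in Col4a1 and Col4a2 (33.8% of promoters). GGGCGG was found in 5 fibroblast, 4 mural and 2 shared genes (32.7%). A match describes letters in this window and not a bound site.

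All 32 genes were detected in the sorted macrophages, at levels that differed widely between genes. Per kilobase of exon and averaged over the 16 libraries, Igfbp7 had the highest level (20.1 CPM per kb), followed by Col1a1 (12.2), Sparc (11.9), Col3a1 (7.27), Acta2 (6.36), Col1a2 (5.97), Pi16 (5.38) and Dcn (5.03). The next mural genes were Myl9 (3.19), Tagln (2.85) and Myh11 (1.04 CPM per kb). These means rest mostly on normal muscle, and the order differed in CTX muscle: Col1a1 was at 2.06 CPM per kb in KO CTX and 2.54 in WT CTX libraries, below Pi16 (4.62 in each) and Sparc (4.32 and 7.18), and Myl9 was at 0.251 and 0.820, below Tagln (1.15 and 1.498). Cnn1, which encodes calponin of smooth muscle, was lowest at 0.126 CPM per kb. All 32 passed the filter on low counts over the 16 libraries, but 6 of them (Mfap5, Dpt, Myl9, Cnn1, Rgs5 and Kcnj8) would not have passed on the CTX libraries alone.

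Type I and type III collagen, the main fibrils of the muscle interstitium, was low in every CTX library. Col1a1 was at 15.6, 12.7, 14.8 and 10.9 CPM in KO CTX libraries 1 to 4, at 14.4, 15.8, 18.5 and 18.03 CPM in WT CTX libraries 1 to 4, at 128, 177, 347 and 51.5 CPM in KO normal libraries 1, 2, 3 and 5, and at 126, 197, 66.0 and 69.7 CPM in WT normal libraries 2, 3, 5 and 6. The libraries are listed in this order for each gene. Every CTX library lay below every normal one, and among the normal libraries the 3 from females were lowest. The log2 fold change of CTX over normal was -3.70 (SE 0.47) in KO and -2.78 (SE 0.45) in WT mice. Col1a2, the other chain of type I collagen, was at 14.4, 11.5, 14.4 and 11.9 CPM in KO CTX, 9.12, 16.1, 20.1 and 18.5 CPM in WT CTX, 125, 176, 296 and 50.6 CPM in KO normal, and 134, 163, 63.3 and 61.5 CPM in WT normal libraries. It broadly followed Col1a1, but less closely in WT CTX library 1 (9.12 against 14.4 CPM), and the order of libraries within a group was not always the same. The fold changes of Col1a2 were -3.63 (SE 0.46) in KO and -2.73 (SE 0.45) in WT mice. Col3a1, the single chain of type III collagen, was at 26.6, 21.2, 19.9 and 21.5 CPM in KO CTX, 31.8, 28.4, 31.9 and 40.8 CPM in WT CTX, 128, 165, 175 and 51.8 CPM in KO normal, and 126, 145, 72.3 and 58.7 CPM in WT normal libraries. Its fold changes were smaller, at -2.54 (SE 0.33) in KO and -1.59 (SE 0.32) in WT mice, and every KO CTX library lay below every WT CTX library.

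Sparc encodes a collagen-binding matrix glycoprotein. It was at 15.5, 15.96, 18.4 and 15.5 CPM in KO CTX, 26.5, 29.2, 29.3 and 23.7 CPM in WT CTX, 70.3, 89.1, 120.3 and 36.1 CPM in KO normal, and 69.4, 76.5, 43.4 and 40.9 CPM in WT normal libraries. The 4 KO CTX libraries were the lowest of all and the 4 WT CTX libraries came next, with fold changes of CTX over normal of -2.27 (SE 0.28) in KO and -1.08 (SE 0.27) in WT mice. Among the minor collagens, the type VI genes Col6a1, Col6a2 and Col6a3, whose product forms beaded filaments around muscle fibres, had fold changes of -3.18, -3.04 and -2.02 in KO and -1.75, -1.61 and -1.25 in WT mice. The type V genes Col5a1 and Col5a2, which start type I fibrils, were at -2.62 and -1.97 in KO and -1.95 and -1.15 in WT mice.

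The small leucine-rich proteoglycans, which bind collagen fibrils, were lower in CTX libraries as well. Dcn (decorin) averaged 9.29 ± 0.605 CPM in KO CTX against 54.0 ± 19.5 CPM in KO normal libraries, and 16.8 ± 0.592 CPM in WT CTX against 37.3 ± 5.78 CPM in WT normal libraries (SD, n = 4 each). Lum (lumican) had fold changes of -2.59 in KO and -1.25 in WT mice, and Bgn (biglycan) of -2.36 and -1.41. Fbn1, the microfibril protein fibrillin-1, was at -1.75 in KO and -0.84 in WT mice, and Mfap5, a microfibril-associated protein, at -1.57 and -1.30. Dpt (dermatopontin) was at -3.33 in KO and -2.17 in WT mice, on 13 reads in all in KO CTX and 22 reads in WT CTX libraries. Aebp1, a secreted collagen-binding protein, was at -2.19 in KO and -0.65 in WT mice.

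A pair of fibroblast genes stood apart from the matrix genes by their small differences. Pi16, a peptidase inhibitor that marks adventitial fibroblasts, averaged 29.4 ± 2.09 CPM in KO CTX against 42.5 ± 11.3 CPM in KO normal libraries (log2 -0.53, SE 0.24), and 29.4 ± 6.15 CPM in WT CTX against 35.7 ± 14.3 CPM in WT normal libraries (log2 -0.28, SE 0.24; SD, n = 4 each). Its CTX and normal ranges overlapped in both genotypes. Pdgfra averaged 1.05 ± 0.591 CPM in KO CTX against 2.38 ± 0.668 CPM in KO normal libraries, a fold change of -1.18 (SE 0.34). In WT mice it averaged 2.38 ± 0.438 CPM in CTX against 2.60 ± 0.234 CPM in normal libraries, a fold change of -0.13 (SE 0.32), the smallest of the 32 in WT mice.

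Mural genes of the contractile apparatus included the largest differences of all 32. Acta2 (smooth muscle actin) was at 6.34, 6.40, 4.87 and 6.03 CPM in KO CTX, 8.84, 7.30, 7.64 and 6.65 CPM in WT CTX, 29.5, 33.2, 29.8 and 16.3 CPM in KO normal, and 19.6, 11.7, 12.4 and 16.7 CPM in WT normal libraries. The normal libraries were all above the CTX libraries, and KO normal library 5 was the lowest of its group. Tagln (transgelin, an actin-binding protein) was at 1.96, 2.15, 2.57 and 2.44 CPM in KO CTX, 3.40, 2.84, 2.92 and 2.75 CPM in WT CTX, 11.5, 15.3, 10.5 and 6.75 CPM in KO normal, and 7.27, 5.33, 6.24 and 6.92 CPM in WT normal libraries. Acta2 and Tagln had near fold changes of CTX over normal, -2.20 and -2.27 in KO and -0.99 and -1.11 in WT mice (SE 0.21 to 0.22 for each). An antisense gene covers 62.4% of the exon bases of Tagln, and reads of the pair cannot be told apart without strand.

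Myl9, the regulatory light chain of smooth muscle myosin, had the largest fold change in KO mice. It was at 0.173, 0.509, 0.224 and 0.260 CPM in KO CTX, 1.19, 0.558, 1.13 and 0.935 CPM in WT CTX, 8.20, 11.5, 9.22 and 5.19 CPM in KO normal, and 5.51, 3.66, 5.31 and 5.82 CPM in WT normal libraries. The 4 groups did not overlap with each other except for the lower part of KO normal and the upper part of WT normal. KO CTX libraries held 3 to 9 reads each and WT CTX libraries 10 to 21, and the fold changes were -4.85 (SE 0.36) in KO and -2.41 (SE 0.31) in WT mice. Myh11, the smooth muscle myosin heavy chain, was at 1.09, 0.396, 0.615 and 0.520 CPM in KO CTX, 1.19, 0.781, 1.99 and 0.770 CPM in WT CTX, 21.3, 20.0, 20.1 and 10.4 CPM in KO normal, and 11.96, 9.46, 10.4 and 15.1 CPM in WT normal libraries. Its fold changes were -4.77 (SE 0.36) in KO and -3.32 (SE 0.33) in WT mice, and KO and WT overlapped in both conditions.

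Receptors and pericyte genes differed more widely among themselves. Notch3, a receptor needed by arterial smooth muscle, averaged 0.862 ± 0.433 CPM in KO CTX against 14.3 ± 3.16 CPM in KO normal libraries, and 1.36 ± 0.931 CPM in WT CTX against 8.85 ± 1.94 CPM in WT normal libraries (SD, n = 4 each). Rgs5, a regulator of G protein signalling in pericytes, had fold changes of -3.70 in KO and -2.11 in WT mice, and Kcnj8, a potassium channel subunit of pericytes, of -3.37 and -1.93. Pdgfrb, the receptor that recruits pericytes to vessels, was at -1.71 in KO and -0.57 in WT mice, and Des (desmin) at -2.92 and -1.46. Cspg4 (the NG2 proteoglycan) varied most within normal muscle, with 3.26, 23.4, 6.06 and 3.54 CPM in KO normal libraries 1, 2, 3 and 5, and its CTX and normal ranges overlapped in both genotypes. Cnn1 had 8 reads in all in KO CTX against 68 reads in KO normal libraries, and 3 reads in WT CTX against 55 reads in WT normal libraries. All 3 reads in WT CTX lay in library 1; 0 reads in each of the others allow 0.165 to 0.199 CPM.

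The shared genes had smaller differences than most others. Igfbp7, a secreted insulin-like growth factor binding protein of vessel walls, was at 9.73, 11.5, 11.1 and 13.2 CPM in KO CTX, 17.8, 19.6, 20.7 and 15.9 CPM in WT CTX, 49.0, 45.2, 44.6 and 28.2 CPM in KO normal, and 32.04, 20.5, 25.2 and 25.3 CPM in WT normal libraries. KO CTX libraries were below all others, and WT CTX overlapped WT normal libraries by a narrow margin (log2 -1.87, SE 0.17, in KO and -0.48, SE 0.17, in WT mice). Col4a1, a chain of basement membrane collagen, was at 20.4, 20.8, 23.9 and 25.9 CPM in KO CTX, 35.7, 38.2, 31.3 and 24.9 CPM in WT CTX, 35.4, 55.1, 76.9 and 31.2 CPM in KO normal, and 40.6, 55.4, 35.3 and 37.0 CPM in WT normal libraries. Col4a2, its partner chain, was at 13.7, 14.4, 16.2 and 16.2 CPM in KO CTX, 24.5, 20.7, 29.1 and 22.0 CPM in WT CTX, 24.7, 39.2, 50.3 and 24.9 CPM in KO normal, and 26.6, 34.1, 24.2 and 26.3 CPM in WT normal libraries. In KO mice neither gene had overlapping groups (log2 -1.12 for Col4a1 and -1.20 for Col4a2), and in WT mice both did (log2 -0.37 and -0.21). The 2 genes share a start region on opposite strands, where the gene models overlap by 22 bases.

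**Figure D1:**
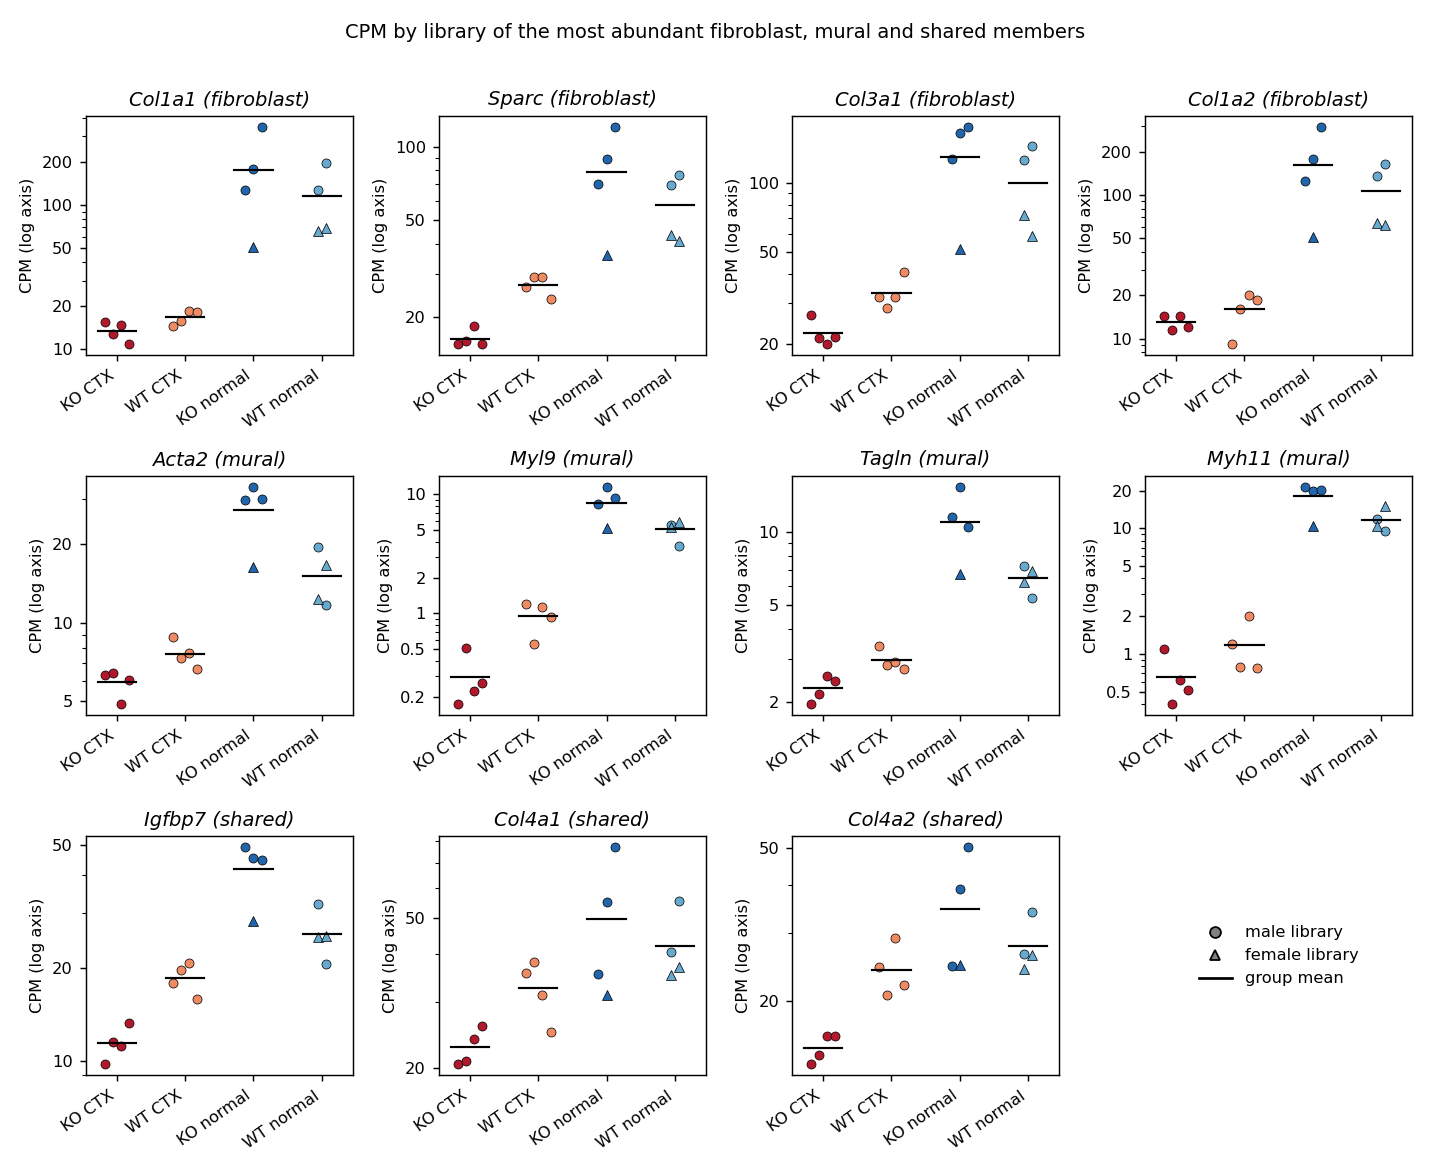
CPM (log axis) of the 4 most abundant fibroblast genes, the 4 most abundant mural genes and the 3 shared genes in each of 16 libraries; circles are male and triangles female libraries, and lines are means of 4 libraries. Col1a1 lies at 10.9 to 18.5 CPM in the 8 CTX libraries and at 51.5 to 347 CPM in the 8 normal libraries, with the 3 female libraries at 51.5 to 69.7 CPM.

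Across the 32 genes, the log2 fold change of CTX over normal muscle ranged from -4.85 to -0.53 in KO and from -3.52 to -0.13 in WT mice. The lowest in WT mice was that of Cnn1, on 3 reads in WT CTX libraries, and Myh11 came next at -3.32. The groups did not overlap for 29 genes in KO (35.5% of 13649 genes tested did not overlap and were lower) and for 25 in WT mice (34.9%); since this contrast chose the genes, nothing is read from these counts. The median log2 fold change in KO mice was -2.45 over the 18 fibroblast, -2.92 over the 11 mural and -1.20 over the 3 shared genes, beside -0.16 over all genes. In WT mice the medians were -1.28, -1.93 and -0.37, beside -0.15. With library totals as the only scaling, the median of all genes lay at -0.77 in both genotypes. In these bulk libraries, fewer fibroblasts or mural cells among the sorted cells and less of their RNA per cell cannot be told apart, and neither can fibroblast RNA from the same transcripts made by macrophages.

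**Figure D2:**
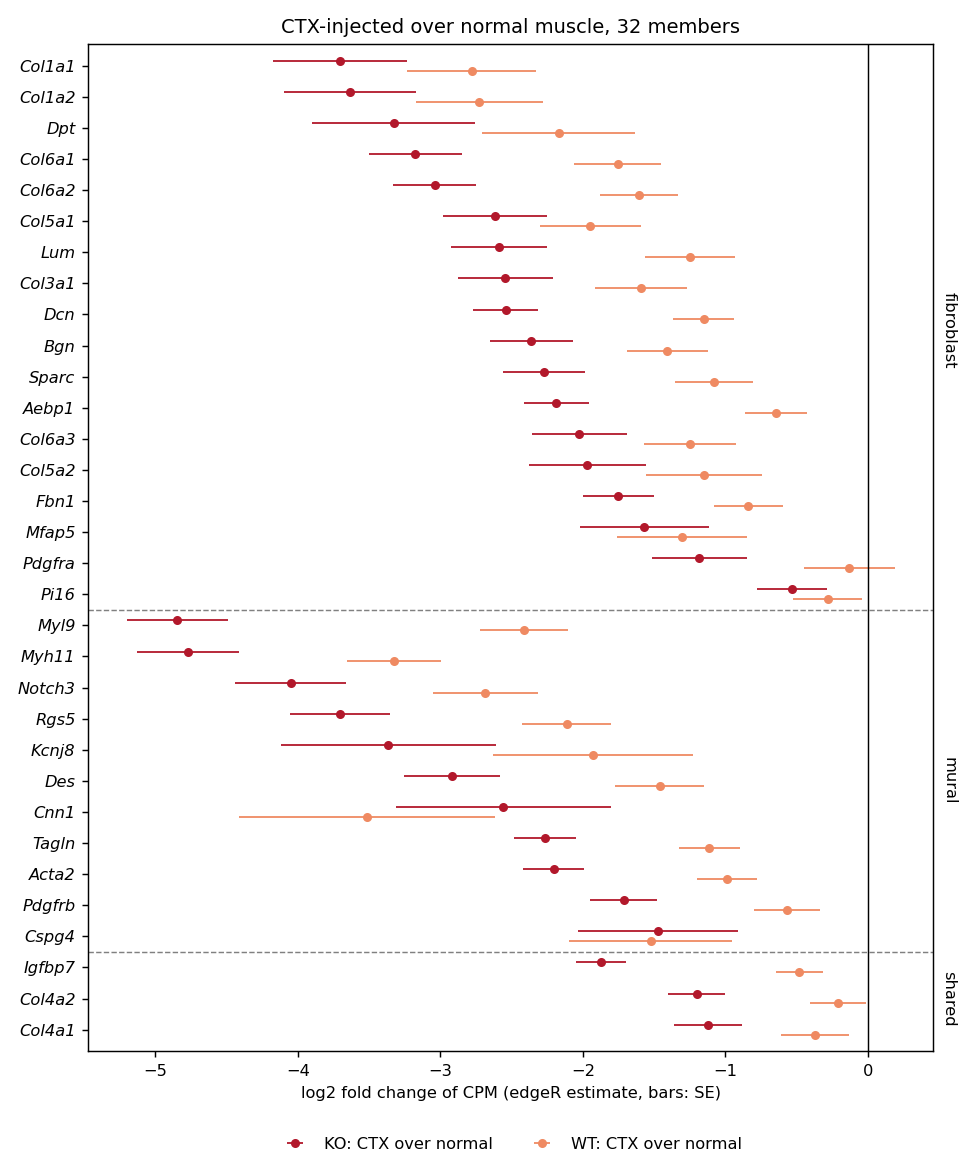
Log2 fold change of CTX-injected over normal muscle for the 32 genes in KO and WT mice (edgeR estimates, bars are standard errors, 4 libraries a group), in 3 classes. The largest fold changes are those of Myl9 (-4.85) and Myh11 (-4.77) in KO mice, and Pi16 (-0.53 in KO, -0.28 in WT) lies nearest 0 among fibroblast genes in KO mice.

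The summed CPM of fibroblast and mural genes kept a similar proportion to each other in all 4 groups. This proportion leans on Col1a1, Col1a2 and Col3a1, at 35.1% to 43.9% of the fibroblast sum in CTX and 51.0% to 70.4% in normal libraries. Median log2 fold changes of CTX over normal, which weigh genes equally, were lower for mural than fibroblast genes (-2.92 and -2.45 in KO, -1.93 and -1.28 in WT mice). The fibroblast genes summed to 122.5 ± 7.44 CPM in KO CTX, 169 ± 7.89 CPM in WT CTX, 739 ± 361 CPM in KO normal and 522 ± 195 CPM in WT normal libraries (SD, n = 4 each). The mural genes summed to 17.3 ± 0.351 CPM in KO CTX, 23.6 ± 3.50 CPM in WT CTX, 109 ± 31.1 CPM in KO normal and 70.6 ± 11.9 CPM in WT normal libraries. Both sums had every KO CTX library below every WT CTX library. The mural sum over the fibroblast sum was 0.142 ± 0.0113 in KO CTX, 0.141 ± 0.0269 in WT CTX, 0.167 ± 0.0544 in KO normal and 0.151 ± 0.0607 in WT normal libraries, so that the group means differed by less than the SD within normal muscle. The lowest ratio was 0.0819 in WT normal library 3 and the highest 0.228 in KO normal library 5, both from normal muscle. With sums of CPM per kilobase of exon the ratio was 0.288 in KO CTX, 0.293 in WT CTX, 0.366 in KO normal and 0.314 in WT normal libraries.

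**Figure D3:**
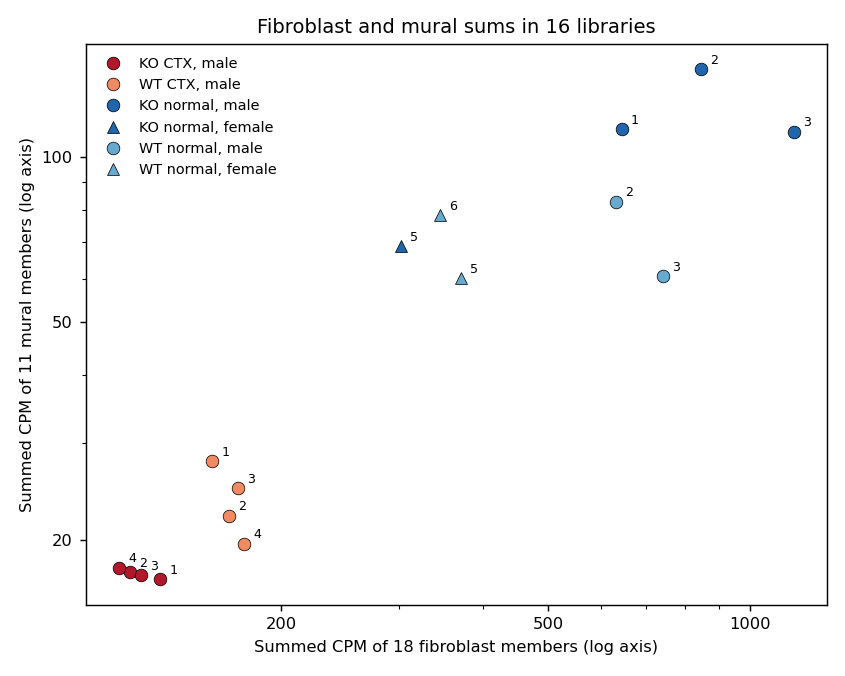
Summed CPM of the 18 fibroblast genes (horizontal, log axis) against summed CPM of the 11 mural genes (vertical, log axis) in 16 libraries, with replicate numbers beside the points. CTX libraries lie at 115 to 176 CPM on the horizontal and 16.9 to 27.8 CPM on the vertical axis, and normal libraries at 302 to 1162 and 60.1 to 145 CPM.

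Within the fibroblast class the proportions of the collagens changed between conditions. The 3 genes of type I and III collagen made up 35.1% to 43.9% of the fibroblast sum in CTX libraries and 51.0% to 70.4% in normal libraries. Per kilobase, Col3a1 over Col1a1 was 0.896 to 1.51 in CTX and 0.337 to 0.732 in normal libraries, with no overlap. Col1a1 over Col1a2 stayed between 1.72 and 2.999 in all 16 libraries, with the highest in WT CTX library 1 (161 reads of Col1a2) and the next highest at 2.28. The level of this ratio reflects the exon lengths used, 6.56 kb for Col1a1 and 12.4 kb for Col1a2. Without them the means over all libraries were near, at 80.2 and 74.2 CPM. Pi16 over Dcn was 1.23 to 3.21 in CTX and 0.518 to 1.22 in normal libraries, with the 4 KO CTX libraries (2.62 to 3.21) above the 4 WT CTX libraries (1.23 to 2.14). Col1a1 over Dcn reached 5.07 in KO normal library 3 and 4.87 in WT normal library 3 and was at most 2.72 in the other libraries.

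**Figure D4:**
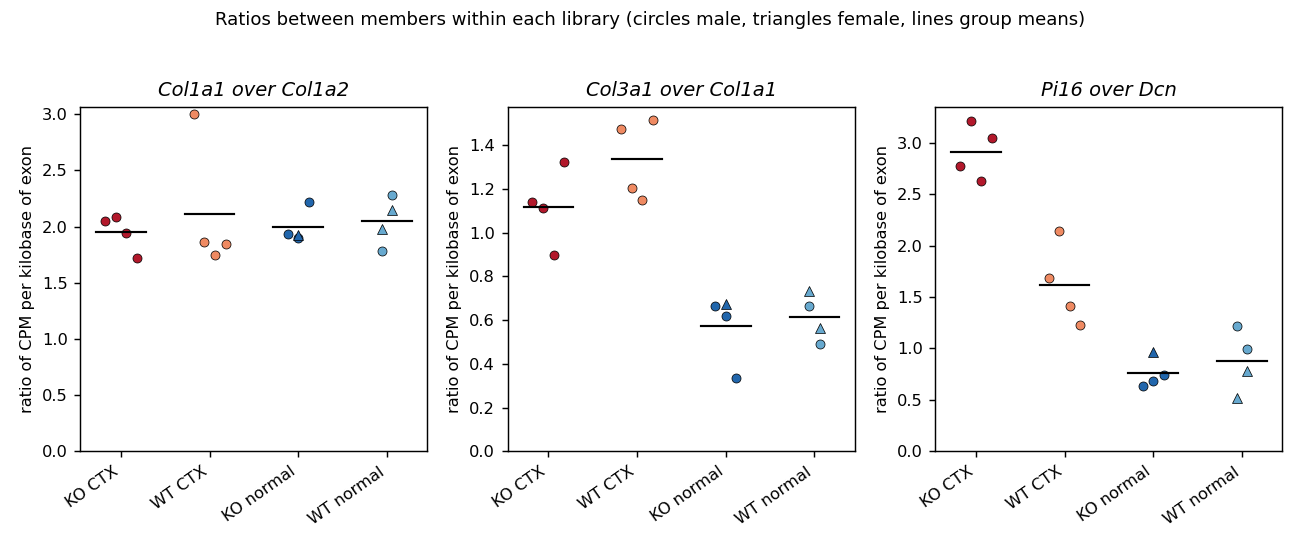
Ratios of CPM per kilobase of exon between gene pairs within each library: Col1a1 over Col1a2, Col3a1 over Col1a1 and Pi16 over Dcn, by group; circles are male and triangles female libraries, and lines are group means. Col3a1 over Col1a1 lies at 0.896 to 1.51 in CTX and 0.337 to 0.732 in normal libraries.

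Normal muscle libraries differed in fibroblast and mural genes, by the median more widely among the KO than among the WT libraries. Over the 8 normal libraries, the highest value was a median of 2.73 times the lowest over fibroblast and 2.76 times over mural genes. Within KO normal libraries the median was 2.35 times over fibroblast and 2.05 times over mural genes, and within WT normal libraries 1.82 and 1.596 times. KO normal library 5, the only female one of its group, was the lowest normal library for 10 of 18 fibroblast and 1 of 11 mural genes. WT normal library 3, a male one, was lowest for the mural genes Acta2, Tagln, Myl9, Myh11, Cnn1, Des and Notch3, and for Igfbp7. Shares over all genes were not counted for the lowest library. Some genes varied more among WT than among KO normal libraries, such as Cnn1 (2.31 times in KO normal, 5.64 times in WT normal) and Des (1.85 and 2.31 times). Col1a1 varied most among fibroblast genes, 6.74 times in KO normal and 2.98 times in WT normal libraries, while Mfap5 varied 1.14 times in WT normal libraries. The 3 female libraries, 1 of KO and 2 of WT mice, were below the 5 male libraries, without overlap, for 11 of 18 fibroblast genes, 1 of 11 mural genes (Rgs5) and 0 of 3 shared genes (7.67% of genes tested). Type I, III and V collagen, Col6a2, Col6a3, Lum, Bgn, Sparc and Pi16 were among the 11. Col1a1 was at 51.5 to 69.7 CPM in the female and 126 to 347 CPM in the male libraries, and Acta2 at 12.4 to 16.7 CPM in the female and 11.7 to 33.2 CPM in the male libraries. The ratio of female to male means had a median of 0.550 over fibroblast and 0.722 over mural genes. Malat1, a nuclear RNA, was highest in KO normal library 5 (7304 CPM) and WT normal library 6 (6966 CPM), and its part in these differences was not tested.

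Between genotypes in CTX-injected muscle, the 32 genes lay mostly lower in KO than in WT mice, but none passed the adjusted threshold. No gene of the 32 was called by edgeR (0.00733% of genes tested were called higher and 0% lower), while 15 were lower and 0 higher at an unadjusted p under 0.05 (3.58% and 3.09% of genes tested). Fold changes were below 0 for 28 of 32 (55.5% of genes tested), and for 11 genes every KO CTX library lay below every WT CTX library (3.87%). Myl9 and Rgs5, counted in the 15 and in the 11, would have failed the low-count filter on CTX libraries alone and entered through normal muscle. The same holds for Dpt and Kcnj8, counted in the 28, and for Mfap5 and Cnn1, which lay above 0. The median was -0.58 over fibroblast, -0.67 over mural and -0.67 over shared genes, beside -0.02 over all genes. The 32 genes are read from the same libraries and are not independent of each other. Endothelial markers lay lower beside them: 8 of 10 were below 0, 5 lower and 1 (Kdr) higher at an unadjusted p under 0.05, with a median of -0.52. Below 0 were also 20 of 22 other fibroblast and matrix genes, 11 of 11 other mural genes and 12 of 14 collagen processing genes, against 5 of 9 muscle fibre and 3 of 8 macrophage genes. Lyz2 (lysozyme), the most abundant of the macrophage genes, averaged 8021 ± 922 CPM in KO CTX against 14893 ± 1174 CPM in WT CTX libraries (SD, n = 4 each; log2 -0.89, edgeR adjusted p = 0.466).

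Myl9 had the smallest adjusted p in that comparison, with 21 reads in all in KO CTX against 65 reads in WT CTX libraries (log2 -1.68, SE 0.39, edgeR adjusted p = 0.240). DESeq2's Wald test called Myl9 alone of the 32 (adjusted p = 0.0469; 0.19% of genes tested were called lower by it), but Myl9 would have failed the filter on the CTX libraries alone and entered this comparison through normal muscle. Igfbp7 averaged 11.4 ± 1.45 CPM in KO CTX against 18.5 ± 2.11 CPM in WT CTX libraries (SD, n = 4 each; log2 -0.70, SE 0.17, edgeR adjusted p = 0.288). Dcn, at 9.29 ± 0.605 CPM in KO CTX against 16.8 ± 0.592 CPM in WT CTX libraries, had a log2 fold change of -0.85 (SE 0.22, edgeR adjusted p = 0.334). Dcn passed the threshold with male libraries alone (edgeR adjusted p = 0.00646) and without KO normal library 5 (edgeR adjusted p = 0.0219), as the 1 gene called lower in each (0.00721% and 0.00726% of genes tested); libraries of normal muscle enter this comparison through the shared estimate of the spread. Myl9, Igfbp7 and Dcn each had groups that did not overlap. The exact two-sided permutation test then gives p = 0.0286, the smallest that 4 against 4 libraries allow, and adds nothing to that. Aebp1, between Igfbp7 and Dcn by adjusted p (log2 -0.92, SE 0.23, edgeR adjusted p = 0.311), had overlapping groups (permutation test p = 0.0571). Col1a1 (log2 -0.31, SE 0.44) overlapped between the genotypes, and so did Pi16, at 29.4 ± 2.09 CPM in KO CTX against 29.4 ± 6.15 CPM in WT CTX libraries. Cnn1, at 1.23 the highest fold change, rested on 8 reads in KO CTX and 3 reads in WT CTX libraries.

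In normal muscle the genes lay mostly higher in KO than in WT mice, and again none passed the adjusted threshold. No gene was called by edgeR or by DESeq2 (0% of genes tested by edgeR in either direction), 9 were higher and 0 lower at an unadjusted p under 0.05 (1.56% and 1.3% of genes tested), and 31 of 32 fold changes were above 0 (50.9%). Of the 9, 6 were mural genes, 2 fibroblast and 1 shared. Acta2 averaged 27.2 ± 7.45 CPM in KO normal against 15.1 ± 3.71 CPM in WT normal libraries (SD, n = 4 each; log2 0.85, SE 0.20, edgeR adjusted p = 0.991), and 3 of 4 KO normal libraries were above all WT normal libraries. Igfbp7 (log2 0.70, SE 0.17) and Tagln (log2 0.77, SE 0.20) had the same adjusted p, as did each of the 32 genes. Aebp1 was the one gene whose groups did not overlap (7.60 ± 1.34 CPM in KO normal against 4.93 ± 0.327 CPM in WT normal libraries; 0.667% of genes tested). The count at an unadjusted p under 0.05 was 19 without KO normal library 5, 4 without KO normal library 2, 6 without library 3 and 9 with male libraries alone. The median of the mural genes, 0.55 over all libraries, was 0.91 with male libraries alone. Of 10 endothelial genes, 10 were above 0 in this comparison and 4 higher at an unadjusted p under 0.05 (median 0.51). Cspg4, at 0.25 over all libraries, was at -0.83 without KO normal library 2.

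The interaction, the KO-over-WT difference in CTX muscle less that in normal muscle, was below 0 for 30 of 32 genes (51.2% of genes tested) and passed the adjusted threshold for none (0% of genes tested). At an unadjusted p under 0.05, 21 were below and 0 above 0 (3.16% and 1.58% of genes tested). Igfbp7 had the smallest adjusted p (log2 -1.39, SE 0.24, edgeR adjusted p = 0.0818), then Myl9 (-2.43, SE 0.47, edgeR adjusted p = 0.164) and Aebp1 (-1.54, SE 0.31, edgeR adjusted p = 0.188). Col1a1 (-0.92, SE 0.61) and Pi16 (-0.25, SE 0.34) were not past an unadjusted p of 0.05. DESeq2's Wald test called 5 genes: Igfbp7 (adjusted p = 0.000379), Aebp1 (0.00318), Myl9 (0.00366), Dcn (0.0182) and Acta2 (0.0468), all below 0 (0.286% of genes tested). edgeR called Dcn and Igfbp7 without KO normal library 5 (adjusted p = 0.000746 and 0.00817; 0.0145% of genes tested) and Dcn with male libraries alone (adjusted p = 0.000909; 0.00721%). Myl9 and Rgs5, both counted in the 21, passed the low-count filter through normal muscle here too, as did Mfap5, Dpt, Cnn1 and Kcnj8. Of 10 endothelial genes, 9 were below 0 and 7 of them at an unadjusted p under 0.05 (median -1.06). The interaction uses the same libraries as the genotype comparisons and adds no samples to them. It is also the KO less the WT fold change of CTX over normal muscle, the comparison on which the genes were selected. Its counts and p-values are therefore not free of that selection and are given as a description.

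**Figure D5:**
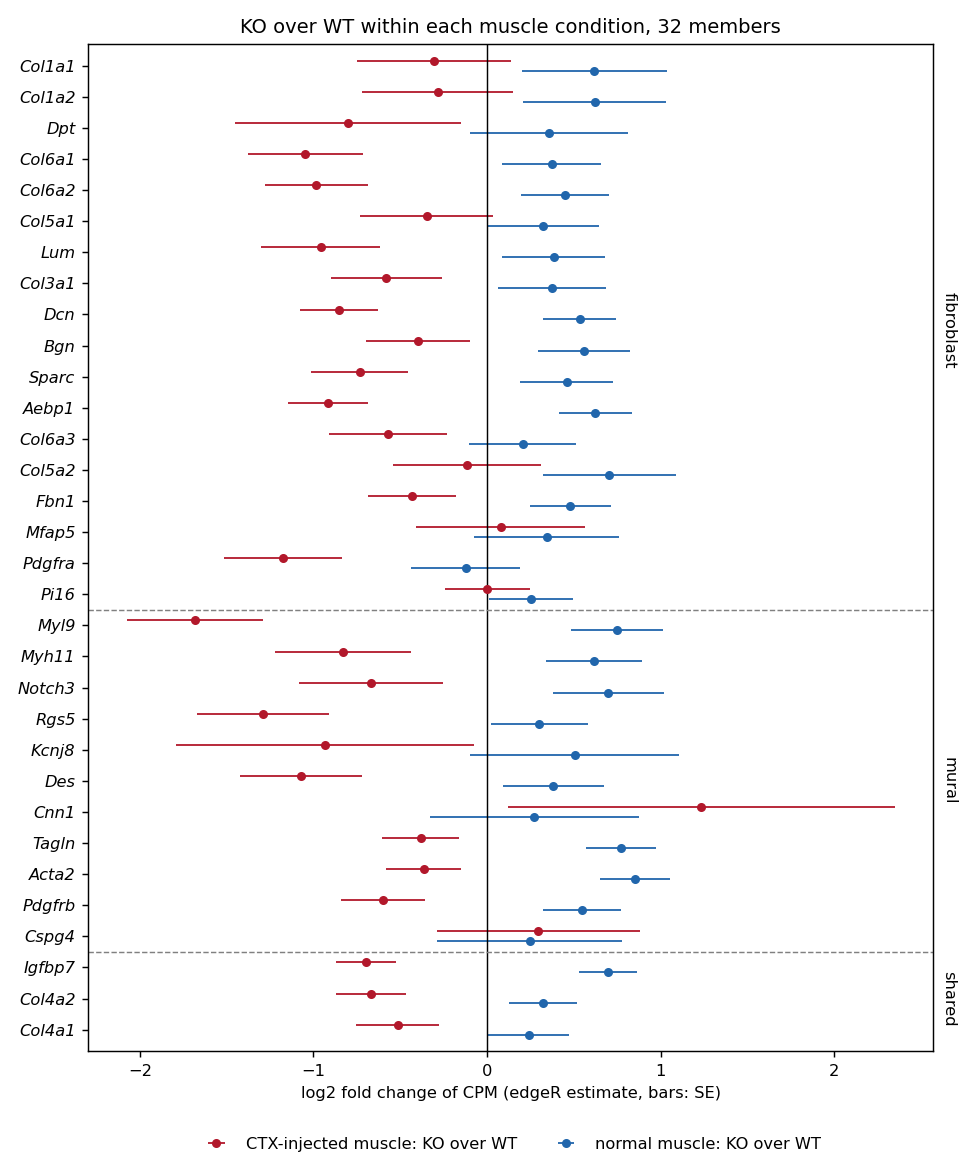
Log2 fold change of KO over WT for the 32 genes in CTX-injected and in normal muscle (edgeR estimates, bars are standard errors, 4 libraries a group), in the order of the plot of injury fold changes. In CTX muscle 28 of 32 lie below 0 and in normal muscle 31 of 32 above 0, and none passed the adjusted threshold.

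Other genes of the same pathways and cell types were counted from lists set beside the 32. Collagen processing enzymes and chaperones, which every collagen-making cell needs, moved both ways with injury: 4 of 14 were called higher and 6 lower in KO mice, and 6 higher and 4 lower in WT mice. These shares lie near those of all genes tested, of which edgeR called 33.3% higher and 40.2% lower in KO and 33.3% higher and 39.4% lower in WT mice (adjusted p under 0.05), and the same shares stand behind each list that follows. P4hb, a subunit of prolyl 4-hydroxylase that also folds other secreted proteins, averaged 1499.7 ± 62.5 CPM in KO CTX against 451 ± 38.2 CPM in KO normal libraries, and P4ha1, its catalytic partner, 186 ± 15.3 CPM against 84.5 ± 11.9 CPM (SD, n = 4 each). Of 22 other fibroblast and matrix genes, 21 were called lower in KO (median log2 -3.33) and 20 lower and 1 higher in WT mice (median -2.22). The 1 higher gene was Gsn (gelsolin, an actin-severing protein of many cells), at 637 ± 25.3 CPM in WT CTX against 391 ± 94.7 CPM in WT normal libraries, while Fmod (fibromodulin, a collagen-binding proteoglycan) was at 5.24 ± 1.40 CPM against 30.3 ± 5.96 CPM. Of 11 other mural genes tested, 10 were called lower in KO (median -3.22) and 8 in WT mice (median -1.60), with Smtn (smoothelin) at 7.55 ± 2.65 CPM in KO CTX against 17.04 ± 1.178 CPM in KO normal libraries and Mylk (myosin light chain kinase) at 1.63 ± 0.652 against 15.3 ± 3.34 CPM. No gene of any of these lists was called between genotypes or in the interaction.

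Markers of further cell types were lower with injury beside the 32 genes. Of 10 endothelial genes, 9 were called lower in KO and 8 in WT mice, and their sum ran from 70.9 to 88.1 CPM in KO CTX, 74.8 to 88.9 CPM in WT CTX, 193 to 268 CPM in KO normal and 147 to 197 CPM in WT normal libraries. Pecam1 and Eng were highest among them in normal muscle, and Kdr in CTX muscle (30.2 ± 7.13 CPM in KO CTX against 19.5 ± 6.68 CPM in WT CTX libraries). Of 9 muscle fibre genes tested, 8 were called lower in each genotype, and the sum of the list was 4.42 to 7.30 CPM in KO CTX, 4.62 to 6.97 CPM in WT CTX, 15.8 to 47.2 CPM in KO normal and 18.7 to 44.5 CPM in WT normal libraries. Ttn and Acta1 were highest in normal muscle, and Acta1 and Tnni2 in CTX muscle. The endothelial and muscle fibre sums overlapped between KO CTX and WT CTX libraries, the endothelial sum with Kdr as its largest part. Satellite cell genes summed to at most 0.115 CPM in KO CTX, 0.266 CPM in WT CTX, 5.85 CPM in KO normal and 2.62 CPM in WT normal libraries. Of mean sums of 4.22 CPM in KO normal and 1.70 CPM in WT normal libraries, Chodl made up 3.77 and 1.47 CPM. Pax7, which defines these stem cells of muscle, had no read in any CTX library, but it was barely detected in normal muscle too (means of 0.083 CPM in KO and 0.061 CPM in WT). Tendon genes summed to at most 0.951 CPM in KO CTX and 1.04 CPM in WT CTX against at most 11.7 CPM in KO normal and 6.67 CPM in WT normal libraries, with 3 of 3 called lower in KO and 2 in WT mice. Of 3 Schwann cell genes tested 2 were called lower in each genotype. Of 8 macrophage genes, 5 were called higher and 2 lower in KO, and 6 higher and 2 lower in WT mice. The part that other carried-over cells had in the differences of the 32 genes was not tested.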

How the data were processed

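The authors deposited 1 table of raw read counts by gene symbol, without normalization, and each of its 16 sample columns matched 1 library by name. Per the submitters' processing notes, FastQC 0.11.7, cutadapt 1.18, HISAT2 2.1.0 and featureCounts of Subread 1.6.2 were used with mm10; per the labels' protocols, RNA came from a Qiagen micro kit and cDNA from SMART-Seq V4, which keeps no strand. The sources used here name neither the annotation counted nor the handling of multi-mapping reads.

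Genes were kept with filterByExpr by group (13649), scaled with TMM and tested with edgeR 4.0.16's quasi-likelihood test (R 4.3.3), 1 coefficient per group over 16 libraries, with Benjamini-Hochberg adjustment over all genes and a threshold of 0.05. The steps were tested on simulated data. CPM used TMM-scaled totals, and exon lengths and coordinates came from GENCODE M21. The exon length of a gene was that of the merged exons of all its annotated transcripts. A limit of 3 reads stands for a count of 0, and such limits cover counting error only, since reads carry no molecular identifiers.

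The 32 genes, their classes and the other lists were chosen with earlier results of these data known. Values in every library are given for the 4 fibroblast and 4 mural genes of highest level per kilobase and for the 3 shared genes; other lists are given by counts and their leading genes, plus the calls of single genes under other settings. Same-numbered KO and WT libraries of normal muscle deviated together from their group means (correlations over genes of 0.644, 0.567 and 0.244 for numbers 2, 3 and 5). KO library 5 correlated best with WT library 6, and both were from females, as was WT library 5. Numbers 2 and 3 were from males in both genotypes, and each of these KO libraries correlated best with the WT library of its own number. A pairing by number is thus uncertain for number 5, where it was not told apart from sex. Same-numbered libraries of CTX muscle did not deviate together (-0.124 to 0.0046). The main tests and the permutation tests left pairing out, and only the replicate block took it up. Alternatives were other scaling, DESeq2 1.42.0, other filters, single libraries left out, male libraries alone and a replicate block. Which cells the transcripts came from was not tested.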

Additional observations from a re-analysis of the deposited data

Results flagged for a closer look

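Of 140 sets of 4 values of a gene, class sum or ratio within a group, 7 held a library far from the other 3 relative to the range of the set (above Dixon's critical value); chance alone flags about 1 set in 20. KO normal library 5, from a female mouse, was low in 3 of them: Dcn at 25.7 CPM against 59.3 to 70.2 CPM in the other 3 libraries, Acta2 at 16.3 CPM against 29.5 to 33.2 CPM, and Myh11 at 10.4 CPM against 20.0 to 21.3 CPM. Fbn1 was high in WT normal library 3, at 9.85 CPM against 6.24 to 6.58 CPM in the others. In CTX-injected muscle, Notch3 was at 1.51 CPM in KO CTX library 3 against 0.623 to 0.691 CPM in the others. Cspg4 was at 3.68 CPM in WT CTX library 2 against 2.26 to 2.44 CPM. Cnn1 was at 0.170 CPM in WT CTX library 1, which held its 3 reads, against 0 in the others.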

How the results depend on the processing

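No median of the fibroblast or mural fold changes, with injury or between genotypes, changed direction under any alternative run. Single genes did: 7 of the 32 had a genotype or interaction fold change of the other sign under at least 1 alternative (Col4a1, Col5a2, Cnn1, Cspg4, Mfap5, Pdgfra and Pi16), and none was called after the change. In CTX muscle between genotypes, 1 gene was called by DESeq2 and 1 with male libraries alone, against 0 in edgeR, and 0 to 1 with single libraries left out. In normal muscle no alternative called a gene (0 to 0 with libraries left out). In the interaction, DESeq2 called 5 and male libraries alone 1, with 0 to 2 when libraries were left out; the cause was not tested. With the replicate block, 0 genes were called in either genotype comparison and in the interaction; the WT fibroblast median of CTX over normal muscle was -1.79 with it. The mural to fibroblast ratio without Sparc was 0.164 in KO CTX and 0.168 in WT CTX, and without Sparc and Des 0.157 in KO CTX. Per kilobase it was 0.288 in KO CTX, 0.293 in WT CTX, 0.366 in KO normal and 0.314 in WT normal libraries. With single libraries left out it was 0.138 to 0.147, 0.129 to 0.151, 0.147 to 0.191 and 0.125 to 0.174 in these 4 groups. Counts of 3 to 21 reads limit Myl9 in CTX libraries, and Cnn1, Dpt and Kcnj8 are at the limit of detection there.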
